A study of Mus musculus with 60 samples.

Results

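Messenger RNA of 10 genes that build, process or anchor the nuclear lamina was followed in the hippocampus of 30-week-old wild-type (WT) and R6/1 mice. R6/1 mice carry a transgene of exon 1 of the human huntingtin gene with an expanded CAG repeat, driven by the human promoter, and model Huntington's disease; both genotypes were on a mixed background of CBA and C57BL/6. The genes were taken by name: the lamins Lmnb1, Lmnb2 and Lmna, the lamin-processing genes Fnta, Fntb, Zmpste24 and Icmt, and the inner membrane anchors Lbr, Tmpo and Emd, together 10 of the 24508 gene symbols in the expression table. There were 9 libraries per genotype, which the labels call independent biological replicates. RNA was extracted from hippocampal tissue and not from sorted cells. The transgene itself was not analysed here. The same study mapped lamin B1 on chromatin from pools of 5 hippocampi, and its domain list for each genotype was used for the position of the genes.

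The nuclear lamina is a meshwork of intermediate filaments under the inner nuclear membrane. It is made of B-type lamins, encoded by Lmnb1 and Lmnb2, and of the A-type lamins A and C, which are splice forms of Lmna. B-type lamins and prelamin A end in a CaaX box, a cysteine followed by 3 further residues. The farnesyltransferase, whose alpha subunit is Fnta and whose beta subunit is Fntb, attaches a farnesyl lipid to that cysteine. The last 3 residues are then cleaved off, and the methyltransferase Icmt caps the new end. Prelamin A alone is cut once more by the zinc metalloprotease Zmpste24, which removes the farnesylated tail, whereas B-type lamins keep theirs. Lbr, the lamin B receptor, Tmpo, which encodes the lamina-associated polypeptides LAP2, and Emd, which encodes emerin, are proteins that hold lamins and chromatin at the envelope. Mutations in Emd and in Lmna are known causes of Emery-Dreifuss muscular dystrophy, and brain is known to hold little lamin A relative to lamin C.

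The reason that 1 gene, Lmna, has both a farnesylated and an unfarnesylated product can be read from the ends of its coding sequences. The last 36 coding bases of GENCODE transcripts on build NCBIM37 are shown 5′ to 3′ for prelamin A, for the lamin C form and for lamin B2, with the last 4 sense codons in capitals where they start with a cysteine codon.
Lmna-001: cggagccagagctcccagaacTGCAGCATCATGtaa
Lmna-002: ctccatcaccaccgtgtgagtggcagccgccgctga
Lmnb2-001: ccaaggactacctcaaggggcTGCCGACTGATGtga
The prelamin A transcript Lmna-001, with a coding length of 1998 bases, and the lamin B2 transcript Lmnb2-001, with 1791, both end in such a box. The transcript Lmna-002, with a coding length of 1725 bases, has no cysteine codon at that place. The expression values below are sums over all transcripts of a gene, so lamin A and lamin C, like the splice forms of Tmpo, are not separated in them.

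Zmpste24 and Tmpo showed the clearest difference between genotypes (below), and their promoter windows are printed to show what lies at their start sites. Both are RefSeq sequences on GRCm38.p6, from 250 bases before to 50 bases after the start, on the minus strand, of chr4:121098161-121098460 and chr10:91171570-91171869. RefSeq windows were matched for 8 of the 10 genes, without Lmnb1 and Fnta. Capitals mark matches, on either strand, to any of 6 motifs: the GC box GGGCGG, the CCAAT box CCAAT, the ETS core CCGGAA, the E-box CACGTG and the E2F cores TTTGGCG and TTTCGCG. No 2 matches overlap in these windows.
Zmpste24: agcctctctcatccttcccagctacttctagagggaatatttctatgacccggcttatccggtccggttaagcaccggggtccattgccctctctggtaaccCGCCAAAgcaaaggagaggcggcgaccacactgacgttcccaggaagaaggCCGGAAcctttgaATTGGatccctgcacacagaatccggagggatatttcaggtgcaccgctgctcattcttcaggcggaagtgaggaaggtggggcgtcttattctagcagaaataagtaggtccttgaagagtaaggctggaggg
Tmpo: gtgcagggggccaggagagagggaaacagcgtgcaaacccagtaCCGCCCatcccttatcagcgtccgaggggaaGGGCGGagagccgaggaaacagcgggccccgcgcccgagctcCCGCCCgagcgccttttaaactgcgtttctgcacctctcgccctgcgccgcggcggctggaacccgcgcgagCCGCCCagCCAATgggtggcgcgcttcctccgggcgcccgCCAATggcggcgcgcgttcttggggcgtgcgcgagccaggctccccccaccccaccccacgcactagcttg
The Zmpste24 window held 1 CCAAT box, 1 ETS core and 1 E2F core TTTGGCG, and no GC box. The Tmpo window held 4 GC boxes and 2 CCAAT boxes. RefSeq has a second start site for Tmpo, whose window (chr10:91170501-91170800, not printed) held 0 matches to all 6 motifs and was 46.3% G and C. Among 32851 windows of the same length, 35.7% held a GC box, 37.4% a CCAAT box, 14.9% the ETS core and 1.56% the E2F core TTTGGCG. The printed windows thus shared the CCAAT box, which more than 1 in 3 promoters hold, and differed in base composition, with 54.0% G and C at Zmpste24 and 71.7% at the printed Tmpo window against a median of 52.7%. These matches describe letters and not bound factors.

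Libraries held between 12299434 and 16736544 reads on genes, with overlapping ranges between the genotypes. Levels are reads per kilobase scaled for depth (RPKM), so they can be compared between genes. A gene was tested where its mean over the 18 libraries was at least 0.5 RPKM, which 14446 genes and all 10 members reached. Differences are R6/1 minus WT on the scale of log2(RPKM + 0.5), tested with limma and called at a Benjamini-Hochberg adjusted p under 0.05 over all tested genes. By this rule 48.3% of all tested genes were called, 24.8% higher and 23.5% lower in R6/1, so a call by itself is common in these data. The ranges of the genotypes did not overlap for 5.50% of genes on the higher side. Scaling each library to its own total of reads raised the share of called genes that were higher from 51.4% to 66.9%, with a median difference over all genes of 0.07 in place of 0.00.

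Of the 10 genes, 6 were called higher in R6/1 (Zmpste24, Tmpo, Emd, Icmt, Lmnb2 and Fnta), 0 were called lower, and 4 did not pass (Lmnb1, Lmna, Lbr and Fntb). The median difference over the 10 was 0.19, against 0.00 over all tested genes. Of the processing genes 3 of 4 were called higher, of the anchors 2 of 3 and of the lamins 1 of 3, where 24.8% of all tested genes were. These groups are small. All differences were small: the largest, of Zmpste24, was 0.37, and 4.79% of all tested genes had a positive difference as large or larger. The authors' deposited table of the same comparison also lists 6 of the 10 genes as higher and 0 as lower.

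**Figure D1:**
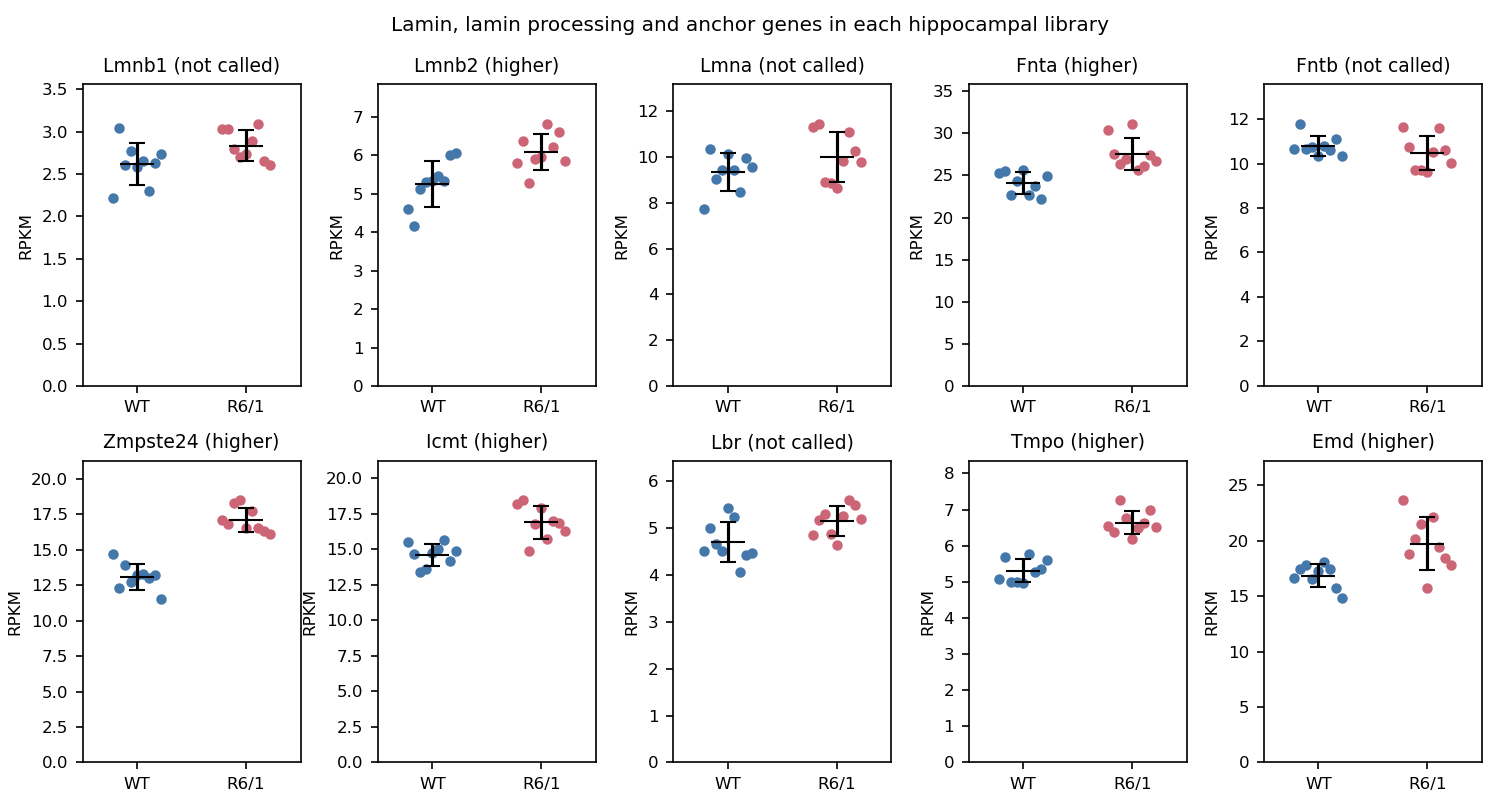
RPKM of each of the 10 genes in the 9 WT and 9 R6/1 libraries, with the mean and SD as bars; each panel has its own linear axis that starts at 0. Only for Zmpste24 and Tmpo do all R6/1 points lie above all WT points.

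Lmnb1, which encodes lamin B1, was the least abundant of the 10 genes. Its level in WT ranged from 2.21 to 3.04 RPKM with a median of 2.63, and in R6/1 from 2.60 to 3.09 with a median of 2.79. Of the R6/1 libraries, 8 of 9 lay above the WT median but 1 of 9 above the highest WT library, so the groups overlapped widely. The means were 2.62 ± 0.247 RPKM (SD, n = 9) in WT and 2.84 ± 0.183 (SD, n = 9) in R6/1. The log2 difference of 0.10 (SE 0.055) did not pass limma's test (adjusted p = 0.141). The gene had 80 to 144 reads per library, and the spread between animals, a coefficient of variation of 9.46% in WT and 6.45% in R6/1, was of the size that counting error alone gives (9.85% and 8.93%). Lmnb1 passed the threshold under 2 other scalings, with quantile normalization (log2 difference 0.15, limma adjusted p = 0.0300) and with each library's own total (0.16, adjusted p = 0.0224).

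Lmnb2, which encodes lamin B2, stood at 4.18 to 6.05 RPKM in WT (median 5.32) and at 5.29 to 6.82 in R6/1 (median 5.95). The upper 4 R6/1 libraries lay above all WT libraries and the lower 3 WT libraries below all R6/1 libraries. The mean rose from 5.27 ± 0.60 RPKM (SD, n = 9) to 6.09 ± 0.469 (SD, n = 9), a log2 difference of 0.20 (SE 0.062, limma adjusted p = 0.0132). Lmna, the source of lamins A and C, ranged from 7.74 to 10.3 RPKM in WT (median 9.45) and from 8.67 to 11.5 in R6/1 (median 9.85). Its groups overlapped over most of their range. The log2 difference of Lmna was 0.09 (SE 0.063) and did not pass limma's test (adjusted p = 0.230), except with each library's own total (0.16, adjusted p = 0.0464).

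The balance between the lamins was compared within libraries, since a ratio of 2 genes in 1 library does not depend on how that library was scaled. Lmna made up 54.2 ± 2.08% (SD, n = 9) of the summed lamin RPKM in WT and 52.8 ± 2.18% in R6/1. Lmnb2 made up 30.6 ± 2.82% and 32.2 ± 2.12%, and Lmnb1 15.2 ± 0.997% and 15.0 ± 0.854%. The order Lmna, Lmnb2, Lmnb1 was thus the same in both genotypes, and each share moved by less than 1 SD.

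The ratio of Lmnb1 to Lmna ranged from 0.255 to 0.294 in WT (median 0.286) and from 0.258 to 0.315 in R6/1 (median 0.279). This was the tightest of the lamin ratios in WT, and 3 of 9 R6/1 libraries lay above its range and none below. Its mean log2 difference was 0.02 (SE 0.045), not separated from 0 by an exact permutation test, two-sided over all 48620 assignments of 9 libraries to a genotype (p = 0.642, also 0.642 adjusted over the 5 ratios computed). Lmnb2 to Lmna ran from 0.404 to 0.634 in WT (median 0.581) and from 0.511 to 0.693 in R6/1 (median 0.597). The log2 difference of that ratio was 0.12 (SE 0.083, exact permutation p = 0.185, adjusted p = 0.464). Lmnb1 to Lmnb2 ran from 0.432 to 0.729 in WT (median 0.483) and from 0.400 to 0.528 in R6/1 (median 0.459), with a log2 difference of -0.10 (SE 0.088, exact permutation p = 0.329, adjusted p = 0.548). The lowest Lmnb2 to Lmna ratio and the highest Lmnb1 to Lmnb2 ratio of WT came from the same library, WT replicate 2. Without it the log2 differences were 0.06 and -0.03, both with an adjusted exact permutation p of 0.685. Lbr to Lmna, a receptor and a lamin that are both known as tethers of heterochromatin, ranged from 0.443 to 0.583 in WT and from 0.428 to 0.594 in R6/1, with a log2 difference of 0.03 (SE 0.065, exact permutation p = 0.595, adjusted p = 0.642).

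**Figure D2:**
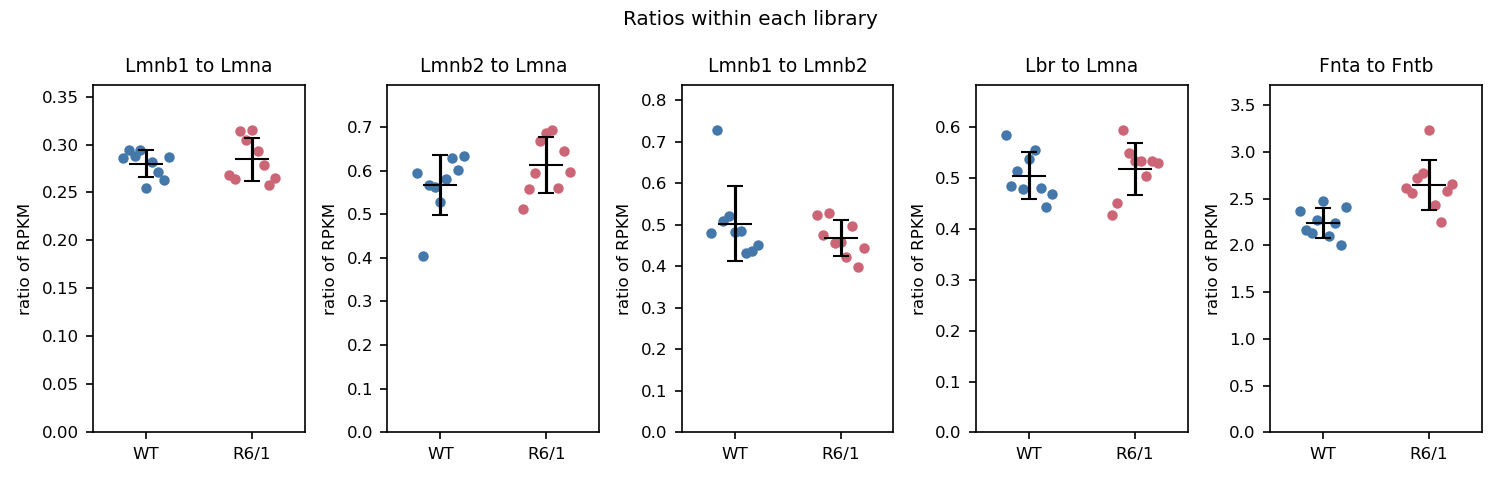
Ratio of RPKM of 2 genes within each of the 9 WT and 9 R6/1 libraries, with the mean and SD as bars and linear axes from 0. The 3 lamin ratios and Lbr to Lmna overlap between the genotypes, and 7 of 9 R6/1 libraries lie above all WT libraries for Fnta to Fntb.

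The 4 processing genes did not move together. Zmpste24, the protease that matures prelamin A, ranged from 11.5 to 14.7 RPKM in WT (median 13.2) and from 16.1 to 18.5 in R6/1 (median 16.8). Every R6/1 library lay above every WT library. The mean rose from 13.1 ± 0.904 RPKM (SD, n = 9) to 17.1 ± 0.865 (SD, n = 9), a log2 difference of 0.37 (SE 0.042, limma adjusted p = 5.37e-07). The gene had 492 to 1098 reads per library, and its counting error of 3.99% in WT and 3.31% in R6/1 was below the spread between animals (6.90% and 5.06%). The annotation places the small RNA genes SNORA18 (125 bases) and U1 (164 bases) within Zmpste24 on the same strand.

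Icmt, which methylates the farnesylated cysteine, ran from 13.4 to 15.7 RPKM in WT (median 14.8) and from 14.9 to 18.5 in R6/1 (median 16.8). The upper 8 R6/1 libraries lay above all WT libraries, and the remaining one fell inside the WT range. The mean rose from 14.6 ± 0.774 RPKM (SD, n = 9) to 16.9 ± 1.17 (SD, n = 9), a log2 difference of 0.20 (SE 0.043, limma adjusted p = 0.000657). Icmt overlaps Rnf207 on the opposite strand over 103 bases, and whether the authors' counting used the strand is not given in the sources used here.

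The subunits of the farnesyltransferase differed. Fnta, the alpha subunit, which the enzyme that attaches geranylgeranyl lipids shares, was the most abundant of the 10 genes, at 22.3 to 25.7 RPKM in WT (median 24.4) and 25.6 to 31.1 in R6/1 (median 26.9). The groups overlapped by 1 library of each genotype. The mean rose from 24.1 ± 1.33 RPKM (SD, n = 9) to 27.6 ± 1.92 (SD, n = 9), a log2 difference of 0.19 (SE 0.042, limma adjusted p = 0.000948). Fntb, the beta subunit that gives the enzyme its choice of lipid, ran from 10.3 to 11.8 RPKM in WT (median 10.7) and from 9.62 to 11.6 in R6/1 (median 10.5). Its log2 difference of -0.04 (SE 0.042, limma adjusted p = 0.415) was the one negative value among the 10, and it became 0.03 with each library's own total (adjusted p = 0.616). Fntb overlaps Churc1 on the same strand over 17592 bases, and Gpx2 and Rab15 on the other strand, so some of its reads could belong to these genes.

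The ratio of Fnta to Fntb ranged from 2.01 to 2.48 in WT (median 2.24) and from 2.25 to 3.24 in R6/1 (median 2.61). All 9 R6/1 libraries lay above the WT median, and 7 of 9 above the highest WT library. The mean ratio was 2.24 ± 0.156 (SD, n = 9) in WT and 2.65 ± 0.269 in R6/1. The log2 difference of 0.24 (SE 0.058) was the one of the 5 ratios that passed the two-sided exact permutation test (p = 0.000699, adjusted p = 0.00350).

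Of the anchors, Tmpo had the larger difference. It ran from 4.96 to 5.77 RPKM in WT (median 5.26) and from 6.19 to 7.26 in R6/1 (median 6.53). As for Zmpste24, every R6/1 library lay above every WT library. The mean of Tmpo rose from 5.30 ± 0.320 RPKM (SD, n = 9) to 6.64 ± 0.324 (SD, n = 9), a log2 difference of 0.30 (SE 0.042, limma adjusted p = 7.41e-06). Tmpo overlaps the long noncoding gene Gm17499 on the opposite strand over 1080 bases.

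Emd ran from 14.8 to 18.0 RPKM in WT (median 17.2) and from 15.7 to 23.6 in R6/1 (median 19.4). Of the R6/1 libraries, 7 of 9 lay above the WT range and the other 2 inside it, which gave R6/1 a wider spread (12.2% against 6.18%) at a counting error of 4.54% in R6/1 and 5.16% in WT. The mean rose from 16.8 ± 1.04 RPKM (SD, n = 9) to 19.7 ± 2.41 (SD, n = 9), a log2 difference of 0.21 (SE 0.062, limma adjusted p = 0.00691). Emd overlaps the pseudogene Gm14686 on the same strand over 343 bases.

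Lbr, which binds B-type lamins and heterochromatin, ran from 4.06 to 5.43 RPKM in WT (median 4.52) and from 4.63 to 5.59 in R6/1 (median 5.18). All 9 R6/1 libraries lay above the WT median, but 2 of 9 above the WT range. The log2 difference of 0.12 (SE 0.052) did not pass limma's test (adjusted p = 0.0635). The call turned on single libraries: it passed without WT replicate 5 (0.15, adjusted p = 0.0237), without WT replicate 6 (0.14, adjusted p = 0.0366) and without R6/1 replicate 5 (0.14, adjusted p = 0.0377). It also passed with quantile normalization (0.14, limma adjusted p = 0.0285) and with each library's own total (0.19, adjusted p = 0.00730). A 5S_rRNA gene of 116 bases lies within Lbr on the same strand.

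**Figure D3:**
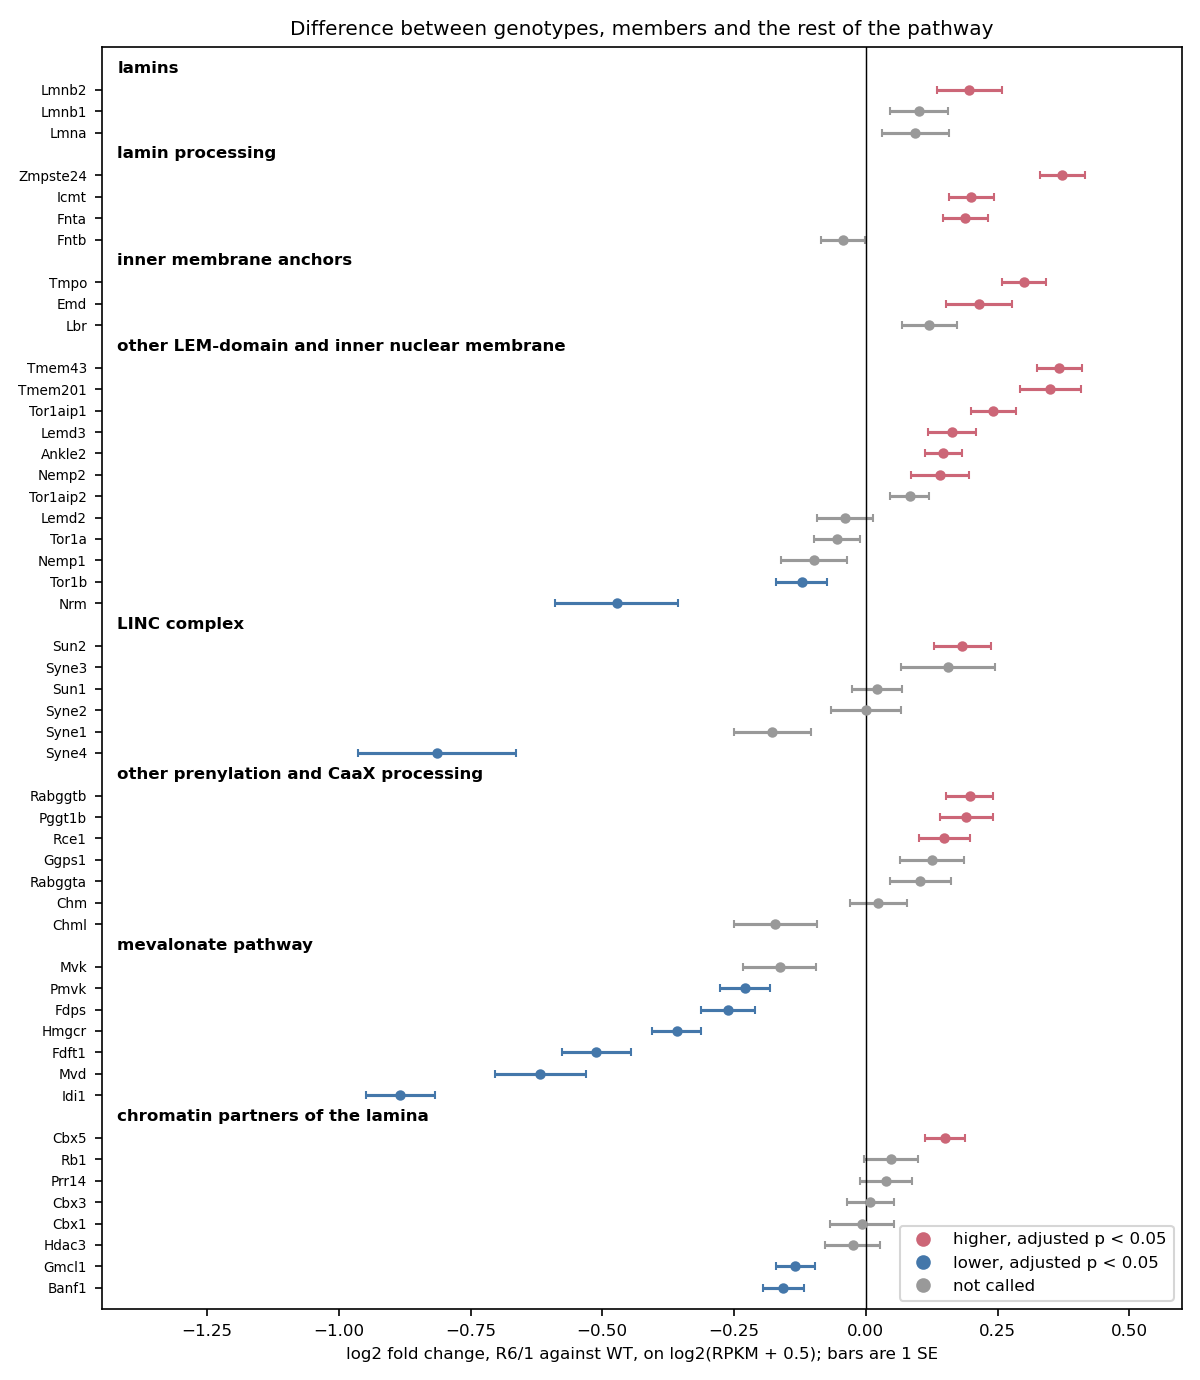
Difference between R6/1 and WT in mean log2(RPKM + 0.5) for the 10 genes and for the tested genes of the pathway lists, with the standard error as bars. Zmpste24 at 0.37 and Tmpo at 0.30 lead the 10 genes, Fntb is the one member below 0 (at -0.04, and at 0.03 when libraries are scaled to their own totals), and Idi1 at -0.88 is the lowest of the pathway genes.

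In order of level, WT hippocampus had Fnta highest, then Emd, Icmt, Zmpste24, Fntb, Lmna, Tmpo, Lmnb2, Lbr and Lmnb1. In RPKM, the ranges over the 9 WT libraries were apart for Fnta and Emd, for Fntb and Lmna, for Lmna and Tmpo and for Lbr and Lmnb1, and overlapped for the other neighbours. Tmpo and Lmnb2 were not ordered within WT libraries, as Tmpo was the higher of them in 3 of 9. In R6/1 the order was the same except that Zmpste24 had the higher mean than Icmt, and it was above Icmt in 3 of 9 libraries. Among the 10 genes, the 4 processing genes were therefore more abundant as mRNA per length than the lamins, apart from Fntb and Lmna, whose ranges overlapped in R6/1. This does not extend to Rce1, a CaaX protease outside the 10. Its mean was 8.60 RPKM in WT and 9.57 in R6/1, below that of Lmna (9.35 and 10.0).

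The other genes of the pathway were taken from 5 lists, of which 40 of 42 genes could be tested: 11 were called higher, 11 lower and 18 were not called. These shares are near those of all tested genes (24.8% higher and 23.5% lower), so the lists as a whole do not stand out. Of 12 other LEM-domain and inner nuclear membrane genes, 6 were called higher and 2 lower, with a median log2 difference of 0.11. Tmem43, an inner membrane protein also called LUMA, ranged from 13.0 to 15.4 RPKM in WT and from 17 to 20.4 in R6/1 (log2 difference 0.37, SE 0.042, limma adjusted p = 6.84e-07), again with no overlap. Tmem201, an inner membrane protein also called SAMP1, rose from 14.7 ± 0.766 to 19.0 ± 2.30 RPKM (SD, n = 9 each; 0.35, limma adjusted p = 5.08e-05). Nrm, which encodes nurim, fell from 1.16 ± 0.175 to 0.718 ± 0.261 RPKM (-0.47, limma adjusted p = 0.00225), at a level near the lower limit of the test and with a noncoding gene on its other strand.

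Of the LINC complex, which links the envelope to the cytoskeleton, 1 of 6 genes was called higher and 1 lower, where 48.3% of all genes were called. The list is too small to set its share apart from that. Syne1 was just past the threshold (limma adjusted p = 0.0503), and the authors' deposited table has 1 of the list higher and 2 lower. Sun2, an inner membrane SUN protein, rose from 10.8 ± 0.865 to 12.4 ± 1.09 RPKM (SD, n = 9 each; 0.18, limma adjusted p = 0.00873). Syne4, which encodes nesprin-4, fell from 1.18 ± 0.427 to 0.433 ± 0.140 RPKM (-0.81, limma adjusted p = 0.000152). It had 4 to 37 reads per library, with a counting error of 35.2% in R6/1. Its R6/1 mean lay under 0.5 RPKM, so it passed the filter through its WT level. Of 7 other prenylation and CaaX genes, 3 were called higher and 0 lower: Rabggtb (0.20, limma adjusted p = 0.00105), the beta subunit of the enzyme that prenylates Rab proteins; Pggt1b (0.19, adjusted p = 0.00333), the partner of Fnta in geranylgeranylation; and Rce1 (0.15, adjusted p = 0.0162), the protease that removes the last 3 residues of a CaaX protein. Rabggtb holds 3 small nucleolar RNAs on its own strand.

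The list of the mevalonate pathway, which makes the farnesyl group itself, went the other way. It also holds Fdft1, which uses that group and is counted among the lower genes and among those without overlap. Of its 7 tested genes 6 were called lower and 0 higher, with a median log2 difference of -0.36, and 4 of the 7 had no overlap between the genotypes. The share of all tested genes without overlap on the lower side was 6.38%. Idi1, the isomerase that makes the starter of prenyl chains, ranged from 16.4 to 23.3 RPKM in WT and from 8.98 to 12.5 in R6/1. No R6/1 library reached the lowest WT library, and the log2 difference was -0.88 (SE 0.065, limma adjusted p = 1.62e-09). Mvd, the mevalonate diphosphate decarboxylase, fell from 7.70 ± 1.06 to 4.85 ± 0.750 RPKM (SD, n = 9 each; -0.62, limma adjusted p = 7.67e-06). Fdft1, the squalene synthase that draws farnesyl diphosphate into sterols, fell from 20.2 ± 2.22 to 14.0 ± 1.34 RPKM (-0.51, limma adjusted p = 2.43e-06). Mvd and Fdft1 each overlap a gene on the other strand. Summed over the list, the mevalonate genes stood at 115 to 144 RPKM in WT and 88.6 to 102 in R6/1, and Hmgcs1 was listed at 0 in all libraries and not tested. Of 8 chromatin partners of the lamina, 1 was called higher and 2 lower, also too few genes to set apart from the share over all genes. Cbx5, which encodes the heterochromatin protein HP1 alpha, rose from 38.8 ± 2.42 to 43.1 ± 1.97 RPKM (0.15, limma adjusted p = 0.00277). Banf1, the barrier-to-autointegration factor that LEM domains bind, was lower (24.4 ± 1.28 against 21.8 ± 1.26 RPKM, -0.16, limma adjusted p = 0.00226), as was Gmcl1 (-0.13, adjusted p = 0.00518), a germ cell-less homologue. The calls of Banf1 and Gmcl1 were lost when libraries were scaled to their own totals (adjusted p up to 0.0625 and 0.193 over the alternatives).

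Cell composition was read from 13 marker lists with 85 genes, of which 77 were tested: 1 was called higher in R6/1, 44 lower and 32 neither, where 23.5% of all tested genes were called lower. In bulk tissue, fewer cells of a type and less RNA per cell cannot be told apart. The dentate granule markers, called lower in 7 of 7, summed to 77.5 to 119 RPKM in WT and 47.5 to 58.2 in R6/1, and the CA3 markers, lower in 6 of 6, to 135 to 218 and 82.9 to 111. Of the CA1 markers 5 of 6 were called lower (162 to 230 against 124 to 141 RPKM), and of the inhibitory neuron markers 5 of 7 (355 to 433 against 216 to 283). Glial lists also held lower genes: 6 of 7 for astrocytes (1083 to 1417 against 858 to 1101 RPKM), 5 of 7 for oligodendrocytes (1023 to 1315 against 632 to 1086) and 3 of 7 for microglia (116 to 191 against 92.9 to 144). The mural and fibroblast list had 3 of 7 lower (77.7 to 115 against 57.1 to 72.8), the endothelial list 1 of 7 (55.8 to 95.0 against 64.6 to 95.1) and the oligodendrocyte precursor list 2 of 5. Of 4 tested immature neuron markers 1 was lower. The endothelial and immature neuron counts are near the share over all genes, and the microglial, mural and precursor counts exceed it by few genes. Choroid plexus markers varied from 26.0 to 1078 RPKM among WT and from 39.1 to 1745 among R6/1 libraries, with 0 of 7 called. All 6 markers of dividing cells had means under 0.5 RPKM, and no marker was at 0 in every library. Of these 6, Mki67 (8 to 66 reads) and Top2a (0 to 30 reads) were lower in R6/1 without overlap. Cdk1, Ccnb1, Birc5 and Aurkb overlapped between the genotypes. The 6 members called higher thus rose in a genotype in which many neuronal and glial markers were lower, and the part of these markers in the result was not tested.

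Within each genotype the level of each member was set against the mean log2 level of 12 marker lists, without the dividing cell list, over 9 libraries. None of the 240 correlations had an adjusted p under 0.05 in exact permutation tests, with Pearson's r or with Spearman's rho; the lowest adjusted p for r was 0.391. At an unadjusted exact permutation p under 0.05 there were 5 of 120 in WT and 14 of 120 in R6/1 for r, and 3 and 6 for rho, where chance gives 6 in each genotype. The values that follow centre on the list with the largest r in size for each gene and describe these 9 libraries per genotype.

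**Figure D4:**
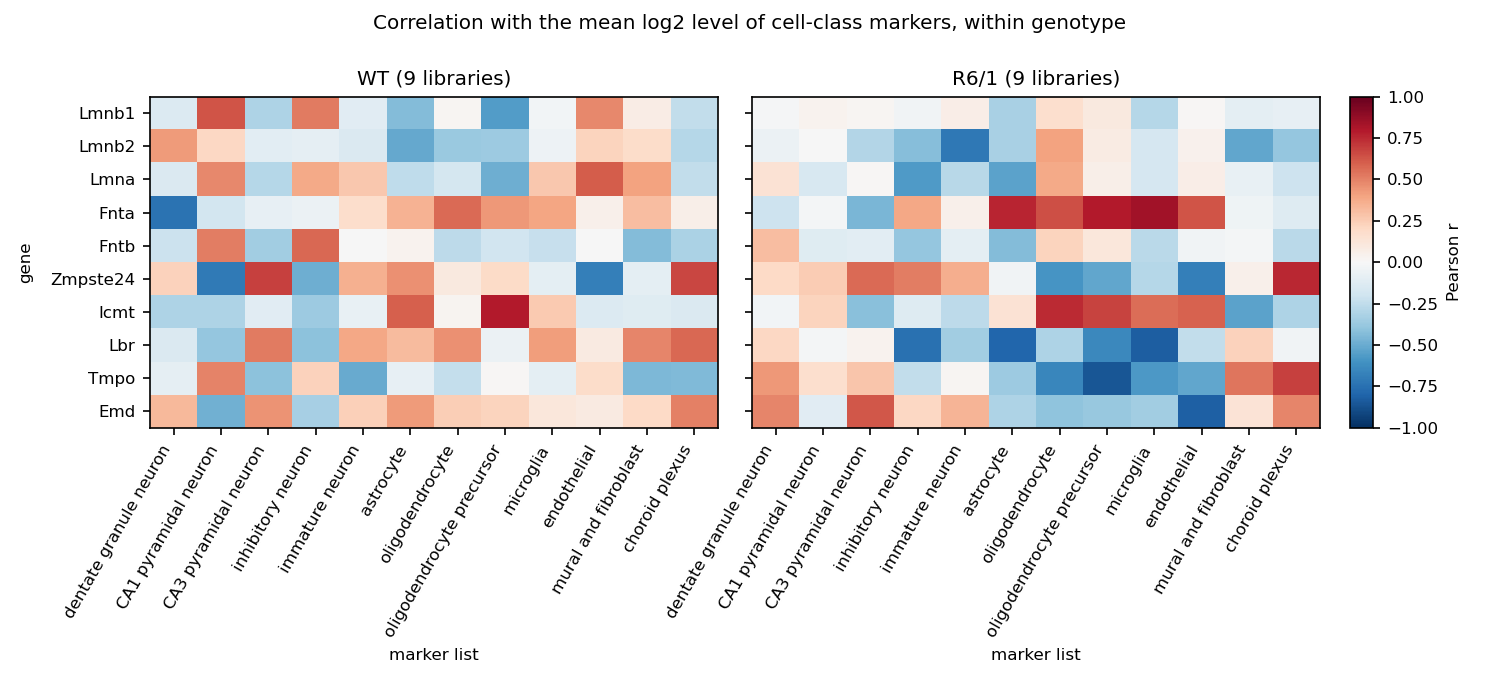
Pearson r, across the 9 libraries of each genotype, between the log2 level of each of the 10 genes (rows) and the mean log2 level of 12 cell-class marker lists (columns), on a colour scale from -1 to 1. No pair passed adjustment over the 240 values, and the pairs with the largest values differ between the genotypes.

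In R6/1 the largest values rested in part on 1 library. R6/1 replicate 5 had the highest microglial, oligodendrocyte precursor, endothelial, astrocyte and inhibitory neuron marker level and the lowest dentate granule and CA3 level of its genotype. The same library had the highest Fnta (31.1 RPKM) and the lowest Lbr (4.63), Tmpo (6.19), Emd (15.7), Lmna (8.67) and Fntb (9.62) of R6/1. For Fnta, Lbr, Tmpo and Emd, each value is therefore followed by the one over the other 8 libraries. For genes that come later, r over these 8 was -0.282 for Lmnb1 with astrocyte and -0.717 for Lmnb2 with immature neuron markers. It was 0.736 for Zmpste24 with choroid plexus, 0.687 for Icmt with precursor and 0.713 for Icmt with oligodendrocyte markers. None of the 120 correlations in R6/1 had an adjusted p under 0.05 over these 8 either (lowest adjusted exact permutation p = 0.684).

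In R6/1, Fnta was high where several glial lists were high. Its r was 0.840 with microglial markers (exact permutation p = 0.00197, adjusted p = 0.391; rho = 0.833, p = 0.00827, adjusted p = 0.661), and 0.726 without R6/1 replicate 5. It was 0.793 with oligodendrocyte precursor markers (exact permutation p = 0.0118, adjusted p = 0.406; rho = 0.50, p = 0.178, adjusted p = 0.852; 0.582 without that library) and 0.763 with astrocyte markers (exact permutation p = 0.0174, adjusted p = 0.498; rho = 0.400, p = 0.291, adjusted p = 0.852; 0.484 without that library). Lbr went the other way with microglial markers (r = -0.823, exact permutation p = 0.00677, adjusted p = 0.391; rho = -0.883, p = 0.00308, adjusted p = 0.369; -0.709 without that library). It did so too with astrocyte markers (r = -0.792, exact permutation p = 0.00815, adjusted p = 0.391; rho = -0.633, p = 0.0760, adjusted p = 0.852; -0.614 without that library) and with inhibitory neuron markers (r = -0.747, exact permutation p = 0.0228, adjusted p = 0.498; rho = -0.633, p = 0.0760, adjusted p = 0.852; -0.654 without that library). Neither gene was tied to 1 cell class by these values. Tmpo had r = -0.853 with oligodendrocyte precursor markers (exact permutation p = 0.00424, adjusted p = 0.391; rho = -0.717, p = 0.0369, adjusted p = 0.852; -0.806 without that library). Emd had r = -0.815 with endothelial markers (exact permutation p = 0.00815, adjusted p = 0.391; rho = -0.767, p = 0.0214, adjusted p = 0.852), and -0.642 without that library. Without the 2 libraries farthest from the list's median, r was 0.774 for Fnta and -0.525 for Lbr with microglial, -0.578 for Tmpo with precursor and -0.618 for Emd with endothelial markers. In WT the same pairs had other values. For Fnta, r was 0.393 with microglial, 0.437 with precursor and 0.350 with astrocyte markers. For Lbr it was 0.415 with microglial, 0.316 with astrocyte and -0.407 with inhibitory neuron markers. It was 0.00964 for Tmpo with precursor and 0.0900 for Emd with endothelial markers.

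For the lamins the largest values over all 9 libraries were lower in size than those R6/1 values of Fnta, Lbr, Tmpo and Emd. Without R6/1 replicate 5, several of Lmna in R6/1 were larger. Its r with oligodendrocyte markers was 0.377 over 9 libraries and 0.780 over 8 (exact permutation p = 0.0257, adjusted p = 0.684). With endothelial markers r was 0.0679 and 0.719, and with oligodendrocyte precursor markers 0.0563 and 0.706. Other lists went the other way, such as astrocyte markers, from -0.538 to -0.286. Lmnb2 had r = -0.711 with the immature neuron list in R6/1 (exact permutation p = 0.0317, adjusted p = 0.543; rho = -0.917, p = 0.00131, adjusted p = 0.315; -0.741 without the 2 farthest). In WT the largest for Lmnb1 was 0.631 with CA1 markers (exact permutation p = 0.0681, adjusted p = 0.676; rho = 0.633, p = 0.0760, adjusted p = 0.852), and for Lmna 0.607 with endothelial markers (exact permutation p = 0.0916, adjusted p = 0.750; rho = 0.30, p = 0.437, adjusted p = 0.911), which rested in part on 2 libraries (0.414 without them). In R6/1 the largest for Lmnb1 was -0.327, with astrocyte markers (exact permutation p = 0.414, adjusted p = 0.895; rho = -0.217, p = 0.581, adjusted p = 0.936), and it was lost without 2 libraries (0.0752). Lamin B1 mRNA thus showed no marker relation in R6/1 that 9 libraries could resolve.

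Zmpste24 and Icmt were the genes with an unadjusted exact permutation p under 0.05 against the same list in both genotypes. The r of Zmpste24 with choroid plexus markers was 0.666 in WT (exact permutation p = 0.0466, adjusted p = 0.589; rho = 0.567, p = 0.121, adjusted p = 0.852; 0.651 without the 2 farthest) and 0.751 in R6/1 (exact permutation p = 0.0222, adjusted p = 0.498; rho = 0.700, p = 0.0433, adjusted p = 0.852; 0.635 without the 2 farthest). With the choroid plexus list as a covariate, limma called 6 of the 10 genes higher and 0 lower. That list had 0 of 7 markers called between the genotypes, so the covariate could change the differences little. The part of choroid plexus content in the result was not tested. Icmt had r = 0.791 with oligodendrocyte precursor markers in WT (exact permutation p = 0.0115, adjusted p = 0.406; rho = 0.700, p = 0.0433, adjusted p = 0.852; 0.711 without the 2 farthest) and 0.674 with the same list in R6/1 (exact permutation p = 0.0451, adjusted p = 0.589; rho = 0.60, p = 0.0968, adjusted p = 0.852; 0.404 without the 2 farthest). Its largest value in R6/1 was 0.747, with oligodendrocyte markers (exact permutation p = 0.0218, adjusted p = 0.498; rho = 0.683, p = 0.0503, adjusted p = 0.852; 0.555 without the 2 farthest). In WT the largest values of Fnta and Zmpste24 were negative. That of Zmpste24 was -0.709, with CA1 markers (exact permutation p = 0.0277, adjusted p = 0.543; rho = -0.567, p = 0.121, adjusted p = 0.852; -0.658 without the 2 farthest). That of Fnta was -0.737, with dentate granule markers (exact permutation p = 0.0307, adjusted p = 0.543; rho = -0.667, p = 0.0589, adjusted p = 0.852; -0.60 without the 2 farthest). The largest value of each gene in each genotype that is not given here, of Lmnb2, Fntb, Lbr, Tmpo and Emd in WT and of Lmna and Fntb in R6/1, lay between -0.565 and 0.577, with unadjusted exact permutation p of 0.103 or more.

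Among the 10 genes themselves, each of 45 pairs was correlated over the 18 libraries after the genotype mean was taken from each value. Lmnb1 and Lmna moved together (r = 0.758, p = 0.000450, adjusted p = 0.0202 by 100000 permutations within genotype), at 0.856 in WT and 0.702 in R6/1. Ranks gave rho = 0.617 (permutation p = 0.0104, adjusted p = 0.295), and r was 0.662 without the 2 libraries farthest from the median of Lmnb1. The spread of Lmnb1 within each genotype was of the size that counting error alone gives, which limits what the r of this pair can show. Lmna and Fntb had r = 0.731 (permutation p = 0.00144, adjusted p = 0.0324; rho = 0.60, p = 0.0131, adjusted p = 0.295), at 0.917 in R6/1 and 0.371 in WT, and 0.771 without the 2 farthest. These were the 2 of 45 pairs that passed adjustment for r, and neither passed for rho. All values share a library's scaling, and with each library's own total the values for these pairs were 0.791 and 0.807. The lowest value was that of Lmna and Zmpste24, whose products are substrate and protease (r = -0.513, permutation p = 0.0312, adjusted p = 0.234; rho = -0.408, p = 0.108, adjusted p = 0.811).

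The genes whose pattern over the 18 genotype-centred libraries was most like a member's were taken from 13105 genes at a mean of 1 RPKM or more, as a description with no test. For Lmnb1 these were Zdhhc8 (r = 0.828), Lypd6b (0.788) and Srm (0.781), and for Lmnb2 Dgka (0.862), Setd4 (0.774) and Kdm8 (0.774). For Lmna they were Hsf4 (0.829), Mcoln1 (0.817) and Rnpepl1 (0.787). Tmpo was most like Hnrnpd (0.809), Hnrnpa3 (0.805) and Ncl (0.800), which encode RNA-binding proteins of the nucleus. Zmpste24 was most like Cybrd1 (0.850), Pls3 (0.824) and Srxn1 (0.820). Emd was most like Emc1 (0.808), Tada2b (0.797) and Etnppl (0.775), Lbr like Paqr5 (0.777), Ecm1 (0.752) and 9530026F06Rik (0.751), and Icmt like Ralb (0.804), Rgcc (0.780) and Tnfrsf19 (0.765). Fnta was most like Cd53 (0.831), the row with the symbol Mir25 (0.818) and Gatm (0.799), and Fntb like Snrpb (0.827), Chst12 (0.798) and F8a (0.796).

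The position of the 10 genes was set against the lamin B1 domains of each genotype, on build NCBIM37. In WT 1 of 10 start sites lay in a domain and in R6/1 0 of 10; there is 1 domain list per genotype, so this has no replicate spread and no test. Outside domains, the start sites lay 1253 to 9450 kb from the nearest R6/1 domain. The lamin B1 gene itself (chromosome 18, 56867467 to 56913078, plus strand) lay 1371 kb from the nearest WT domain and 1963 kb from the nearest R6/1 domain. Lmna (chromosome 3, 88285070 to 88313878, minus strand) lay 2225 and 2447 kb away, Lmnb2 (chromosome 10, 80363948 to 80380990, minus strand) 6085 kb in both genotypes, and Zmpste24 (chromosome 4, 120731842 to 120770846, minus strand) 6848 and 6774 kb.

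Emd was the gene in a WT domain. It lies on the X chromosome at 71500026 to 71506887 on the plus strand, inside a single WT domain of 67.6 Mb from 52540001 to 120139000. In R6/1 the same stretch held 4 domains that covered 43.1 Mb of it, and Emd fell in a gap of 7.92 Mb between a domain that ended at 67340000 and one that started at 75258001. Of the 67 tested genes with a start site in that gap, 21 were called higher and 9 lower, with a median log2 difference of 0.08, against 24.8% and 23.5% over all tested genes. Tmpo (chromosome 10, 90610316 to 90634759, minus strand) lay 5750 kb from the nearest domain in WT and 9450 kb in R6/1, where the start of that domain was at 100085001 in place of 96385001.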

How the data were processed

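Hippocampal RNA of 9 WT and 9 R6/1 mice was sequenced from stranded messenger RNA libraries, per the labels' protocols. The submitters' processing notes name TopHat, DESeq2 and mm9 for what the authors did, without roles or versions; the counter, its use of strand and the annotation are not given in the sources used here. The authors deposited RPKM for 24508 symbols. For the comparison, the authors' deposited table holds a normalized mean signal, a log2 fold change with its SE, a score and p-values. Lamin B1 domains were deposited as 1 list per genotype with the authors' score, which was not used; ATAC-seq was not analysed here. RPKM values were whole multiples of 1 read, within 0.05 of a read, for 99.87% to 99.91% of values, which gives the reads per library and scaling by size factors (0.801 to 1.18). Counting errors cover counting only.

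Genes were tested with limma 3.58.1 in R 4.3.3 (lmFit and eBayes with trend) on log2(RPKM + 0.5), two-sided. This scale understates changes of low genes. On simulated data with 200 changed genes among 14384, 52% were recovered at a log2 change of 0.3 and 96% at 0.6, and 2.27% of calls were unchanged genes. The simulation gave every gene the same dispersion and changed a far smaller share of genes than the 48.3% called here. Its rates therefore do not carry over to these data. Ratios and marker correlations used exact permutation tests (48620 assignments; 362880 pairings), adjusted over 5 ratios and 240 correlations. Members, lists and tests were chosen with earlier results of these data known. Pathway genes were named as the called genes with the 3 largest absolute differences per list. The 45 pairs of members, the correlations without R6/1 replicate 5 and the genes around Emd were added after seeing the data. Alternatives covered the pseudocount, the filter, scaling, a replicate block, covariates, voom on recovered reads, leaving out each library, and the authors' deposited table. Unused columns of per-sample values numbered 0.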

Additional observations from a re-analysis of the deposited data

Results flagged for a closer look

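Dixon's rule was run on 30 groups of 9 libraries, the 10 genes and 5 ratios in each genotype, and a library stood apart in 2 of them, where 1.5 are expected by chance at 1 in 20. In WT replicate 2 the ratio of Lmnb2 to Lmna was 0.404, with a gap to the next library of 0.537 of the whole range, past Dixon's critical value for 9 samples. In the same library the ratio of Lmnb1 to Lmnb2 was 0.729, with a gap of 0.695 of the range. The values have 1 source: this library had the lowest Lmnb2 of WT (4.18 RPKM) together with the highest Lmnb1 (3.04) and the highest Lmna (10.3). Without it the log2 differences between genotypes were 0.06 for Lmnb2 to Lmna and -0.03 for Lmnb1 to Lmnb2, in place of 0.12 and -0.10.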

How the results depend on the processing

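Over 31 alternatives 6 to 9 of the 10 genes were called higher (9 with each library's own total, 8 with quantile normalization) and 0 lower. These scalings also raised the calls over all 14446 tested genes, to 5110 higher with own totals and 4251 with quantile normalization, against 3586 in the main test. The 6 genes called in the main test kept their call in each alternative. Their adjusted p ranged from 0.00234 to 0.0279 for Lmnb2 and up to 8.38e-06 for Zmpste24, 0.000231 for Tmpo, 0.00165 for Icmt, 0.00231 for Fnta and 0.0154 for Emd. The value of Fntb reversed with each library's own total (a log2 difference of 0.0267, limma adjusted p = 0.616). Leaving out 1 library gave 6 to 7 members higher, 0 lower, and 20 to 24 called pathway genes (22 in the main test). The log2 differences of the ratios without 1 library ran from 0.00 to 0.04 for Lmnb1 to Lmna, 0.06 to 0.15 for Lmnb2 to Lmna, -0.12 to -0.03 for Lmnb1 to Lmnb2, 0.01 to 0.07 for Lbr to Lmna and 0.20 to 0.27 for Fnta to Fntb, the last with an adjusted exact permutation p of at most 0.00802. Same-numbered libraries of WT and R6/1 had correlations from -0.0576 to 0.253, positive for all but replicate number 5, and 3 of 9 were over 0.1. Of the WT libraries, 2 of 9 correlated best with their own number. Whether the numbers mark a weak pairing was not tested. With the replicate block 6 members were called higher, 0 lower, and 22 pathway genes were called; the Fnta to Fntb ratio had an adjusted p of 0.0195 in an exact sign-flip permutation test. Lmnb1 had the fewest reads, 80 to 144 per library. Of the marker correlations, 0 passed adjustment under any alternative, and 0 in R6/1 without R6/1 replicate 5, an alternative chosen after seeing the data. The cause of these shifts was not tested.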
